A study of Mus musculus with 2 samples.

Results

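The sites described here are the 2000 strongest distal sites of open chromatin in mouse lung, out of 118098 distal sites that both libraries shared (1.69%) and 283349 sites in all on chromosomes 1 to 19. The maps come from DNase-seq of whole lung of B6NCrl mice at postnatal day 0, in 1 group of 2 biological replicates with no treatment, allele or other tissue. According to the labels the replicates are separate biosamples with a shared donor entry and no sex collected; whether they are different animals or pools is not stated, so the spread between replicates may be technical. The sites were chosen by the authors' peak score, which makes their scores a description. Overlapping peaks of both replicates were merged, and a site was kept if it held peaks of both replicates and its centre lay more than 1000 bp from every GENCODE transcription start site (TSS). Sites were then ranked by their highest score within each replicate, and the 2000 with the best mean rank were taken, and they are compared throughout with the other 116098 shared distal sites.

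DNase I cuts DNA where nucleosomes are displaced, mostly by bound transcription factors, so that peaks of cutting mark promoters, enhancers and insulators. Distal sites are thought to be mainly enhancers, which hold short sequences bound by factors such as AP-1 (Fos and Jun dimers), the SP and KLF factors or steroid receptors, and insulators, which are bound by CTCF, the organiser of chromatin loops. In whole lung a signal sums over epithelial, endothelial, mesenchymal and blood cells, and a site open in more cells cannot be told apart from a site that is cut more often in each cell. Marker genes were looked at as a limited check of the tissue label. All 7 lung markers (Sftpc, Sftpb, Nkx2-1, Ager, Hopx, Foxf1 and Tbx4) had a shared site within 500 bp of a TSS. So did 1 of 2 liver markers (Alb, scores 36 and 40), 1 of 2 heart markers (Tnnt2, scores 67 and 37) and 0 of 2 pancreas markers. The share over all genes is not given, so these counts alone do not establish the tissue. The replicates held 276892 and 188726 peaks, and their depth is unknown.

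The following sequences are the 150 bp around the centres of strong sites, on the plus strand of GRCm38 (mm10) and taken from that genome sequence. The first set holds the 3 sites with the best mean rank, to show what the extreme of the map looks like; capitals mark a GC box (GGGCGG), the sequence bound by SP and KLF factors. The Fos site lies at chr12:85455326-85455475, in intergenic DNA 18489 bp upstream of Fos, the Foxo3 site at chr10:42277736-42277885, 1056 bp upstream of Foxo3, and the Bsn site at chr9:108201246-108201395, 10937 bp upstream of Bsn.
Fos: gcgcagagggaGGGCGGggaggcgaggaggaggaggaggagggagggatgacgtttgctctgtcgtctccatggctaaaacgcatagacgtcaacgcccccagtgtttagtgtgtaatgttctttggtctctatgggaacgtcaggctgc
Foxo3: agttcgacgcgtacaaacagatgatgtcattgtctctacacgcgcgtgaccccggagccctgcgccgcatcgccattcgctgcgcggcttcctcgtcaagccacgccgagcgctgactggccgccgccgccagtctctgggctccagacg
Bsn: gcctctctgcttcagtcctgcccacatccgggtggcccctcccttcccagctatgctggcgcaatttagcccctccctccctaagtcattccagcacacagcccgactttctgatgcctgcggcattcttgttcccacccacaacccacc

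The second set holds 2 of the best ranked sites with the AP-1 consensus TGACTCA, shown in capitals; the Zfp869 site also has the NFY consensus CCAATCA, in capitals on the minus strand. The sites lie at chr8:69716976-69717125 (intergenic, near Zfp869) and chr5:135957666-135957815 (intergenic, 4530 bp downstream of the TSS of Ssc4d).
Zfp869: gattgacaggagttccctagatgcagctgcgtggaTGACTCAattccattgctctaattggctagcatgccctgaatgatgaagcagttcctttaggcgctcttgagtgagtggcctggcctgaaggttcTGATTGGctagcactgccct
Ssc4d: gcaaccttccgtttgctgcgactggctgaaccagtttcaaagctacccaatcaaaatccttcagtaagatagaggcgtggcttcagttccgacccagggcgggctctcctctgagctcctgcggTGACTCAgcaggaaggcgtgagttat

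The third set shows consensus sequences that are best known from promoters: a GC box on the minus strand, 2 copies, in the intron of Creb3l1 (chr2:92008396-92008545), a CRE (TGACGTCA, bound by CREB and ATF factors) with NFY upstream of Tle2 (chr10:81571666-81571815), and the E-box CACGTG (bound by MYC, USF and clock factors) with NFY upstream of Dync1h1 (chr12:110591606-110591755). Capitals mark these elements. The Dync1h1 site lies in an exon, 1169 bp from the TSS of B930059L03Rik.
Creb3l1: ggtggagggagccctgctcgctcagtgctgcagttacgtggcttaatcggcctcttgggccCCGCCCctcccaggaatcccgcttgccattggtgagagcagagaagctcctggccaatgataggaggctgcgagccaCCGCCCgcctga
Tle2: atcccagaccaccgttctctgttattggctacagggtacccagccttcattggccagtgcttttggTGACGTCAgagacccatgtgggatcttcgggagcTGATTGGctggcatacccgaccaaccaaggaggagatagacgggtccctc
Dync1h1: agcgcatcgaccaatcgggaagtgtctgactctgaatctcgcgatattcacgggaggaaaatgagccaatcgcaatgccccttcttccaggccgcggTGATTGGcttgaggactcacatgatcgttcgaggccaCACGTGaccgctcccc

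The fourth set holds the best ranked sites with the CTCF consensus, in capitals and on the minus strand, because CTCF sites were few among the strongest. All are intergenic by GENCODE, at chr2:170319296-170319445, chr7:110164176-110164325 and chr1:135753046-135753195. The nearest protein-coding TSSs are those of Bcas1 (30369 bp away), Wee1 (42205 bp) and Phlda3 (12998 bp).
Bcas1: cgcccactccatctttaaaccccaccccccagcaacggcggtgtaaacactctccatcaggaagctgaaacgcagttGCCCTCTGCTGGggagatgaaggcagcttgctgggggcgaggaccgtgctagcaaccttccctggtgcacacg
Wee1: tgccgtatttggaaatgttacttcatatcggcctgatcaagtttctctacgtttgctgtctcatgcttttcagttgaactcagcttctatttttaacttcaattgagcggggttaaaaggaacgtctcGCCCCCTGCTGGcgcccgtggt
Phlda3: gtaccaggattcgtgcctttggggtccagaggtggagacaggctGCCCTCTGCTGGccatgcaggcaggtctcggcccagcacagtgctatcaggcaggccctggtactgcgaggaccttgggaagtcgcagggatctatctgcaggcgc

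The fifth set, chosen after its values were seen, holds the best ranked sites with a glucocorticoid response element, the arms GNACA and TGTNC with 3 bases between them, in capitals. In the Per1 sequence a CRE is also in capitals. They lie at chr11:69097066-69097215 (1807 bp upstream of the protein-coding TSS of Per1, in an intron of an annotated transcript), chr8:126736656-126736805 (142745 bp upstream of Irf2bp2) and chr19:23056956-23057105 (84195 bp upstream of Klf9).
Per1: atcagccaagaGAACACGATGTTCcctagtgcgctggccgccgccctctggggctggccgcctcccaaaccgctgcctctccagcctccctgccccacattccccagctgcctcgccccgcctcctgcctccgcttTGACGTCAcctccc
Irf2bp2: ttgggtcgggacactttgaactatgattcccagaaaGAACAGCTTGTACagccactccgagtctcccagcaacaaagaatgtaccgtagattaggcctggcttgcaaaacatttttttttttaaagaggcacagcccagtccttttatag
Klf9: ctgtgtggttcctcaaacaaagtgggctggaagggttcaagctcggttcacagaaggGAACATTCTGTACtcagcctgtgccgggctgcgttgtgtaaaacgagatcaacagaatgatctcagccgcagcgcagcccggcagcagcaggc

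The score that chose the sites is a whole number of at most 150, the width of a peak. Its meaning is not given in the labels or files, and it may be compressed near its top. It ran from 114 to 148 in replicate 1 (median 126) and from 89 to 143 in replicate 2 (median 103) among the strongest sites. Among the other shared distal sites the medians were 62 in replicate 1 and 43 in replicate 2. The last site taken scored 121 and 93; 10 sites were tied there, of which 8 fell inside and 2 outside, and the next site past the tie scored 118 and 96. The limit therefore cuts through a continuous range, as the plot of the scores of shared distal sites shows. Ranking by replicate 1 alone kept 1610 of the 2000 sites, and ranking by replicate 2 alone kept 1607.

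**Figure D1:**
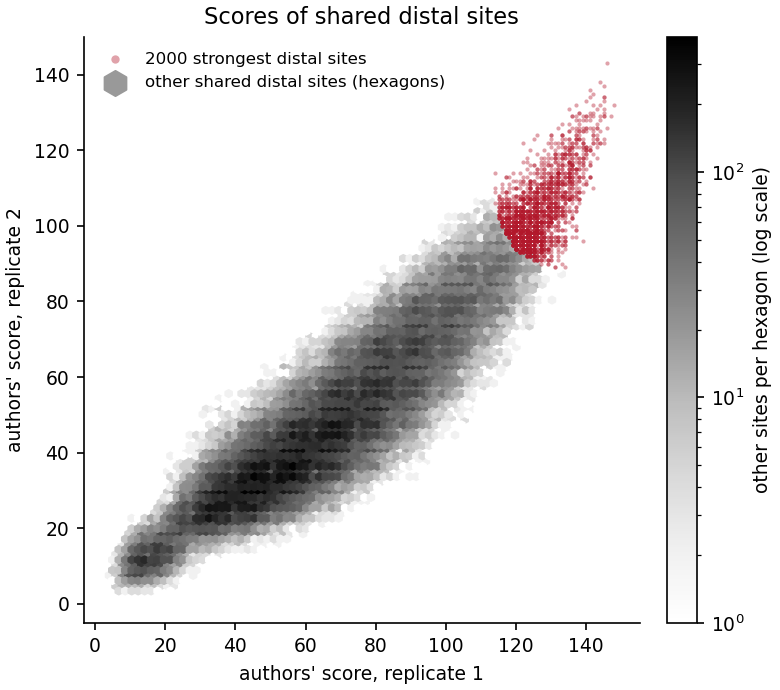
Scores of shared distal sites in replicate 1 (x axis) and replicate 2 (y axis), with no unit. Red points are the 2000 strongest sites and grey hexagons the other shared distal sites, darker where more sites fall; the red points lie between 114 and 148 in replicate 1 and between 89 and 143 in replicate 2 and join the grey cloud without a gap.

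The site with the best mean rank lay upstream of Fos, the gene of an AP-1 subunit that growth factors and stress switch on within minutes, and scored 146 in replicate 1 and 143 in replicate 2. The site near Foxo3, a forkhead factor restrained by insulin signalling, scored 145 and 137. The site near Bsn, the gene of a scaffold protein of nerve terminals, scored 148 and 132, and the nearest annotated TSS of any kind was that of Gm37230. Further down, the sites near Creb3l1, a membrane-bound bZIP factor, and Sin3a, a corepressor scaffold, both scored 145 and 134. The order of these sites rests on differences of a few score units and differs between the replicates: Bsn led in replicate 1 and Fos in replicate 2.

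The word distal holds for GENCODE starts only. Of the 10 best ranked sites, 5 lay within 1000 bp of a transcript start in RefSeq, a second annotation of the same assembly, and the Zfp869 site lay 17 bp from a RefSeq start of Zfp869 itself. Of the other sites printed above, the Tle2 site lay 857 bp from a RefSeq start of Gm31936. The Dync1h1 site lay 307 bp from one of B930059L03Rik and the Bcas1 site 146 bp from one of Gm34542. Of the 100 best ranked sites, 27 lay within 1000 bp of a RefSeq start. Of all 2000 it was 227 (11.35%, exact 95% interval 9.99 to 12.8), against 3.80% of the other shared distal sites. These 227 sites had a median GC content of 57.3%, 7 CpG and a GC box in 36.6%; the 1773 farther ones had 53.3%, 3 CpG and a GC box in 20.6%. Median scores were alike at 126 and 105 near RefSeq starts and 126 and 102 farther away. All intervals here are exact binomial (Clopper-Pearson) ones that cover counting error only, since neighbouring sites are not independent.

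The strongest sites lay closer to TSSs than the other shared distal sites, and less often inside genes. Their median distance to a TSS was 6863.5 bp, against 11582 bp. Within 2500 bp lay 22.6% (20.8 to 24.5) of the strongest sites and 13.0% of the others, and beyond 100000 bp lay 11 of the 2000 (0.55%) and 3.68% of the others. Intergenic DNA held 961 of the strongest sites (48.05%, 45.8 to 50.3) against 41.8% of the others, introns 45.1% against 52.7% and exons 6.85% against 5.42%. On the side of the gene, 50.15% (47.9 to 52.4) lay downstream of the nearest protein-coding TSS, against 52.9%.

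Their sequence was also richer in CpG and poorer in repeats. The 150 bp around the centre had a median GC content of 54.0% and 4 CpG in the strongest sites, and 48.7% and 2 CpG in the others. At least 6 CpG were present in 32.0% (30.0 to 34.1) of the strongest sites, against 6.65%. Windows made up mostly of repeat were found in 14 strongest sites (0.70%, 0.383 to 1.17), against 4.73%. Genes for tRNAs, which RNA polymerase III transcribes, lay within 200 bp of 15 strongest sites (0.75%, 0.420 to 1.23) and of 0.110% of the others; so 10.5% of the 143 shared distal sites at tRNA genes were among the strongest. Those 15 sites scored 115 to 140 in replicate 1 and 96 to 119 in replicate 2, and 6 of them held the B box, an inner tRNA promoter element, in the window.

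Hotspots, the broader regions that the authors called from the same reads, were wide around the strongest sites, which describes the same signal again. In replicate 1 the median width was 897 bp around the strongest sites and 341 bp around the others; in replicate 2 it was 663 bp against 251 bp. Hotspots wider than 1000 bp held 42.75% of the strongest sites in replicate 1, against 5.34% of the others, and 21.25% against 1.77% in replicate 2. The plot of position and hotspot width shows both shifts over the whole range. In each replicate 1998 of the 2000 strongest sites lay in a hotspot (99.9%), but so did 99.2% of the others in replicate 1 and 98.3% in replicate 2.

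**Figure D2:**
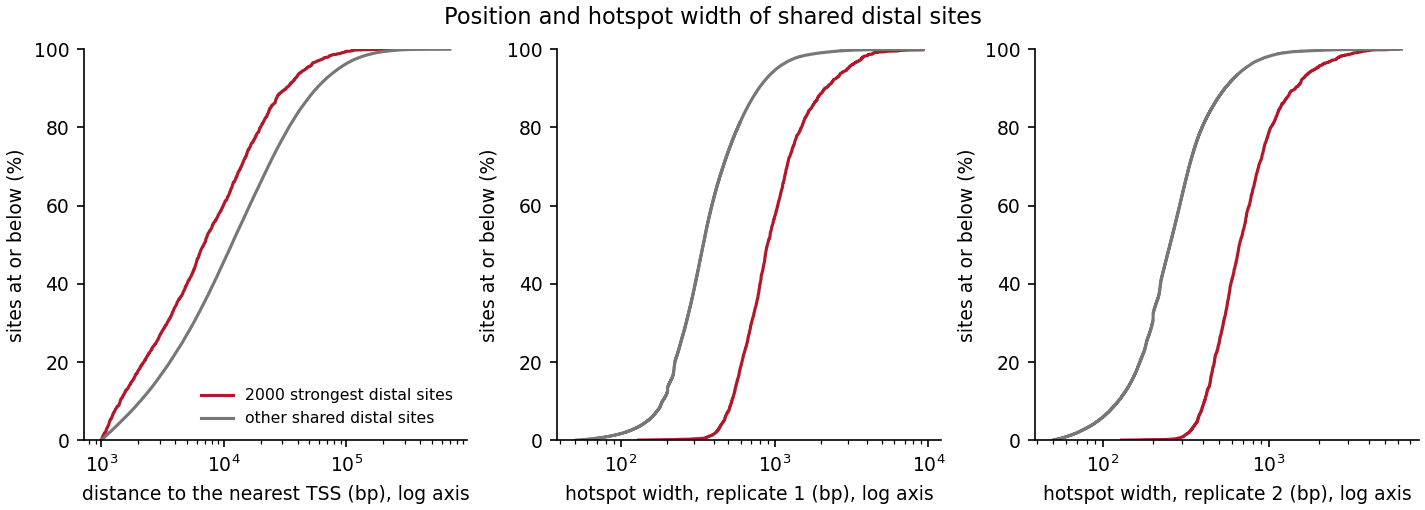
Cumulative share of sites (y axis, percent) by distance to the nearest TSS and by hotspot width in replicates 1 and 2 (x axes, bp, log scale; sites in no hotspot are not drawn). Red lines are the 2000 strongest sites and grey lines the other shared distal sites; the red line lies left of the grey one for distance (medians 6863.5 and 11582 bp) and right of it for width (medians 897 and 341 bp in replicate 1, 663 and 251 bp in replicate 2).

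Consensus sequences were searched on both strands of the 150 bp around each centre, and a match is a description of the letters, not evidence that a factor was bound. Of 39 consensus sequences, 12 were held by at least 1.5 times as large a share of the strongest sites as of the others. Another 13 were held by at most 0.8 times as large a share, and 14 lay between. Of the 13, 2 were held by 0 strongest sites: the nuclear factor I palindrome and a direct repeat bound by RXR partners. These 2 were held by 0.121% and 0.0319% of the others. The upper limit in the strongest sites was 0.184% for each, so these counts of 0 do not show a scarcity. The GC box was the most frequent of the 12: 449 strongest sites (22.45%, 20.6 to 24.3) held it against 5.32% of the others, a ratio of 4.22, and 135 of the 449 held 2 or more copies. The NFY consensus was present in 107 strongest sites (5.35%, 4.40 to 6.43) and in 1.59% of the others, and the E-box CACGTG in 122 (6.10%, 5.09 to 7.24) and in 2.85%. The CRE was rarer, in 29 strongest sites (1.45%, 0.973 to 2.08), against 0.397%. ZNF143, a factor known from promoters whose consensus was read as ACTACA and TCCC with 2 bases between them, had the largest ratio, 10.4, but from 17 strongest sites (0.85%) and 0.0818% of the others. NRF1 (GCATGCGC) was held by 1.5% against 0.327%, and the ETS site of housekeeping promoters (CCGGAAGT) by 1.55% against 0.357%. Both hold a CpG and, like ZNF143, were not compared within bands of GC content or CpG number.

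**Figure D3:**
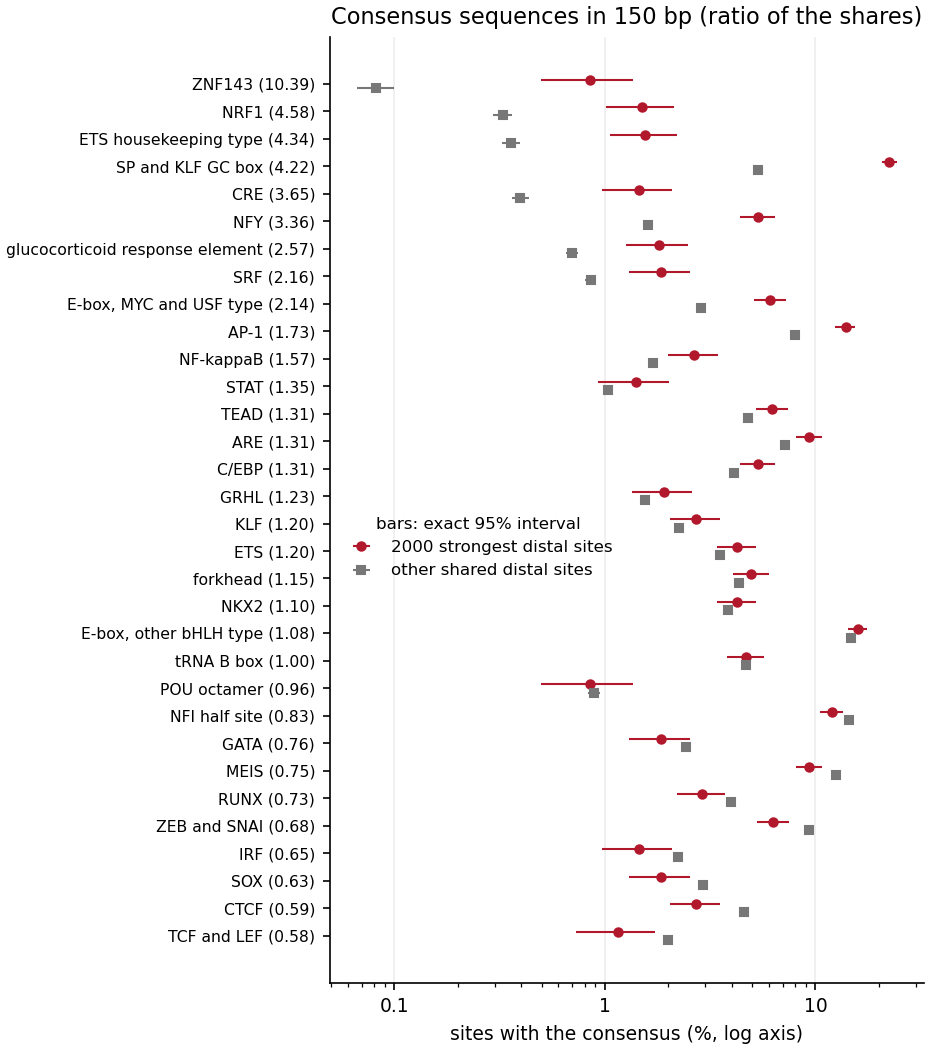
Share of sites that hold each consensus sequence (x axis, percent, log scale) in the 2000 strongest sites (red circles) and the other shared distal sites (grey squares), with exact 95% intervals for counting error; the ratio follows each name. The 32 consensus sequences held by at least 17 strongest sites are shown: the GC box stands at 22.45% against 5.32%, AP-1 at 13.9% against 8.03% and CTCF at 2.7% against 4.6%.

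The AP-1 consensus TGACTCA was present in 278 strongest sites (13.9%, 12.4 to 15.5), against 8.03% of the others. Its sites differed from those with a GC box, but GGGCGG itself adds GC content and a CpG to the window. The 278 sites had a median GC content of 52.0%, 3 CpG and a TSS distance of 7987.5 bp; the 449 sites with a GC box had 62.7%, 9 CpG and 4885 bp, and 36 sites held both. Hotspots were 866 and 597 bp wide around the AP-1 sites and 1098 and 776 bp around the GC box sites (medians, replicates 1 and 2). A further 1060 strongest sites held none of CTCF, AP-1, GC box, glucocorticoid response element, NFY, CACGTG, NF-kappaB and CRE. Their medians were near those of the AP-1 sites: 52.7% GC, 3 CpG, 7280.5 bp, and hotspots of 856.5 and 644 bp. Among the strongest sites AP-1 stood at 17.3% (13.7 to 21.4) beyond 20000 bp from a TSS and at 14.7% (12.3 to 17.3) from 5000 to 20000 bp. Nearer it stood at 11.4% (9.28 to 13.8), and these intervals all overlap. In the other sites AP-1 stayed at 7.94%, 8.24% and 7.86%.

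The palindrome read by the glucocorticoid receptor and its relatives was present in 36 strongest sites (1.80%, 1.26 to 2.48), against 0.699% of the others. These 36 sites had a median of 2 CpG and lay 10425.5 bp from a TSS (median), against 4 CpG and 6863.5 bp over all strongest sites. Of the 36, 0 were in exons, 1 also held AP-1 and 4 a GC box. Over all strongest sites these shares were 6.85%, 13.9% and 22.45%, and 36 sites are too few to read the counts as traits. The NF-kappaB consensus, read loosely as GGGA and TCC with 3 bases between them, was present in 53 strongest sites (2.65%, 1.99 to 3.45) and in 1.69% of the others. The CArG box bound by serum response factor, the activator of many immediate early genes, was present in 37 strongest sites (1.85%, 1.31 to 2.54), against 0.856%. The consensus sequences of 2 factor families of lung epithelium had intervals that held the background, forkhead (TGTTTAC) at 4.95% (4.04 to 5.99) against 4.31% and NKX2 (CACTTGA) at 4.25% (3.41 to 5.23) against 3.86%. TEAD (CATTCCA) stood above it, at 6.25% (5.23 to 7.40) against 4.77%, as did C/EBP (TTGCNCAA), at 5.35% (4.40 to 6.43) against 4.10%. A short nuclear factor I consensus (TTGGCA) stood below it, at 11.95% (10.6 to 13.5) against 14.4%. SOX (1.85% against 2.93%), TCF and LEF (1.15% against 1.99%) and the ZEB and SNAI E-box (6.30% against 9.29%) were held by fewer of the strongest sites.

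Base composition moved with several of these shares. It was looked at only for CTCF, AP-1, the GC box, the glucocorticoid response element, NFY, CACGTG, NF-kappaB and the CRE. At 50 to 60% GC, the GC box was held by 16.5% (14.2 to 19.1) of the strongest sites and 7.72% of the others, a ratio of 2.14 in place of 4.22. AP-1 was held by 18.8% (15.7 to 22.2) against 8.06% under 50% GC, 14.5% against 8.31% at 50 to 60% and 7.09% (4.98 to 9.72) against 5.41% above 60%. NF-kappaB stood at 2.61% (1.47 to 4.27) against 1.21% under 50% GC, at 2.47% (1.57 to 3.68) against 2.31% at 50 to 60% and at 3.04% (1.71 to 4.96) against 2.57% above 60%, so that its interval lay above the background only under 50% GC. CACGTG stood at 4.35% (2.83 to 6.35) against 2.15%, 5.59% (4.20 to 7.26) against 3.73% and 9.11% (6.72 to 12) against 4.36% in the same GC bands. Because CACGTG holds a CpG, it was also compared by CpG number: 2.00% (1.10 to 3.34) against 1.56% with 2 or fewer, 6.66% (4.88 to 8.83) against 4.94% with 3 to 5 and 10% (7.79 to 12.6) against 6.72% with 6 or more. The glucocorticoid response element stood at 1.83% (1.07 to 2.91) against 0.662% and NFY at 6.23% (4.76 to 7.98) against 1.59% at 50 to 60% GC. Under 50% GC these were 2.43% (1.34 to 4.05) against 0.748% and 4.17% (2.69 to 6.15) against 1.62%. Above 60% they were 1.01% (0.329 to 2.35) against 0.406% and 5.06% (3.30 to 7.38) against 1.24%. The interval of the glucocorticoid response element thus held the background above 60% GC. It also did with 6 or more CpG, at 0.625% (0.171 to 1.59) against 0.453%. The CRE, which holds a CpG, was found in 0 of 699 strongest sites with 2 or fewer CpG (upper limit 0.526%), against 0.203%. It stood at 1.51% (0.728 to 2.76) against 0.695% with 3 to 5 and at 2.97% against 1.04% with 6 or more. At 50 to 60% GC its interval held the background, at 1.07% (0.516 to 1.97) against 0.533%. The CRE interval lay above the background under 50% GC (1.39% against 0.306%) and above 60% (2.23% against 0.406%).

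The CTCF consensus, the 12-letter core of its site, was held by 54 strongest sites (2.7%, 2.03 to 3.51), against 4.6% of the others. That direction rested on replicate 1: the 2000 strongest by replicate 1 alone held it in 1.85%, and those by replicate 2 alone in 5.0%, above the 4.6%. In both replicates, though, the share was higher further down the ranking: it was highest, at 9.75% (8.48 to 11.1), at ranks 16001 to 18000 of replicate 1 (scores 93 to 95) and, at 12.55% (11.1 to 14.1), at the same ranks of replicate 2 (scores 69 to 71). By mean rank the highest share was 11.25% (9.90 to 12.7) at ranks 12001 to 14000, and 35 of the 58 other groups of 2000 sites stood at or above the strongest. For AP-1, the GC box, the glucocorticoid response element, NFY, CACGTG, NF-kappaB and the CRE, 0 of the 58 did. The fall was not always sharp. At ranks 2001 to 4000 AP-1 stood at 11.6% (10.2 to 13.1) and the glucocorticoid response element at 1.4% (0.932 to 2.02). NF-kappaB stood there at 2.05% (1.48 to 2.77) and the CRE at 0.6% (0.310 to 1.05). These intervals overlapped those of the strongest sites. Those of the GC box (11.9%), NFY (2.35%) and CACGTG (3.75%) did not. Far down the ranking, at ranks 48001 to 50000, NF-kappaB still stood at 2.45% (1.82 to 3.23). That interval overlapped the one of the strongest sites (2.65%, 1.99 to 3.45). At ranks 84001 to 86000 NF-kappaB stood at 1.0% (0.612 to 1.54), below it. The NF-kappaB share thus did not fall steadily, and its lead in the strongest sites was small. The 54 CTCF sites were intergenic in 64.8%, lay at a median of 4349 bp from a TSS and had hotspots of 689.5 and 537 bp; 2 also held AP-1 and 8 a GC box. Over all strongest sites the values were 48.05%, 6863.5 bp, 897 and 663 bp, with AP-1 in 13.9% and a GC box in 22.45%.

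**Figure D4:**
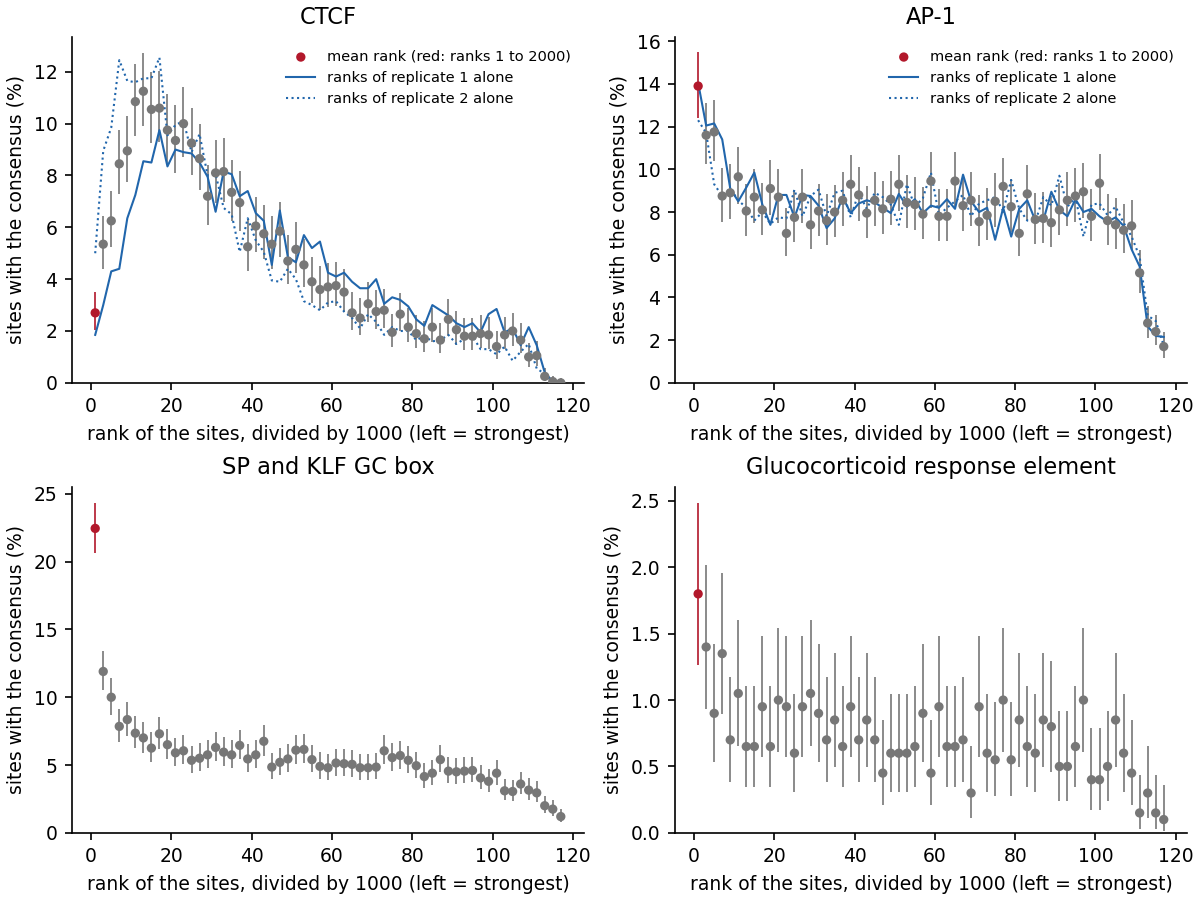
Share of sites with a consensus sequence (y axis, percent) in groups of 2000 sites along the ranking (x axis, rank divided by 1000, strongest at the left), for CTCF, AP-1, the GC box and the glucocorticoid response element. Points are groups by mean rank with exact 95% intervals, red for the 2000 strongest; blue lines (CTCF and AP-1) use the ranks of replicate 1 alone (solid) or replicate 2 alone (dotted). CTCF starts at 2.7% and peaks at 11.25%, while the other panels are highest in the first group (13.9%, 22.45% and 1.8%).

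CTCF copies also sat elsewhere in the strongest sites. In the 300 bp around the centre, 22 of 83 copies (26.5%) lay within 25 bp of the centre in the strongest sites, at a median of 48 bp, against 68.9% and 17 bp in the others. The value was 21.5% when replicate 1 alone ranked the sites and 32.4% when replicate 2 alone did, while at mean ranks 12001 to 14000 it was 60.6%. For AP-1 the position was the same in both sets, 29.3% within 25 bp in the strongest sites and 30.0% in the others. NFY copies lay nearer to the centre in the strongest sites, 29.8% within 25 bp against 19.2%.

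The strongest sites came close together. Another strongest site lay within 12.5 kb of 494 of them (24.7%, 22.8 to 26.7), whereas the same measure in the other groups of 2000 ran from 1.5% to 13.5%, with the highest value in ranks 2001 to 4000 and a median of 4.8%. Peaks within 1 hotspot share their surroundings, so these sites are not independent. Chromosome 11 held the largest share, 190 strongest sites of 7996 shared distal sites (2.38%), and chromosome 14 the smallest, 62 of 4790 (1.29%). In 17 places 4 or more strongest sites followed each other at such distances, 76 sites in all.

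The run with most sites was at Kdm6b, whose protein removes methyl groups from lysine 27 of histone H3: 8 strongest sites within 10390 bp (chr11:69408676-69419065), scoring 121 to 142 in replicate 1 and 99 to 123 in replicate 2. All 8 of these sites lay within 1000 bp of a RefSeq start (22 to 878 bp), so the run is distal by GENCODE only. Of these 8 sites, 2 held AP-1, 3 a GC box and 0 CTCF. The next runs, named after their values were seen, held 6 sites in 16170 bp between Nr1d1, a repressor of the circadian clock, and Msl1, and 6 in 24970 bp at Mcl1, a survival factor of the BCL2 family, and Adamtsl4. At Zfp503 a run of 4 sites in 9630 bp reached 147 and 129, and all 4 held a GC box.

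By nearest TSS, 1501 of 20780 protein-coding genes (7.22%) were nearest to at least 1 strongest site, 314 to 2 or more and 46 to 4 or more. The nearest gene is a label of position and need not be the gene a site acts on. Kdm6b had 9 of its 17 shared distal sites among the strongest, of which 1 lay more than 1000 bp from every RefSeq start (11884 bp). Irf2bpl had 8 of 28, Irf2bp2, a transcriptional corepressor, 7 of 60, and Fos 6 of 23. Sik1, a kinase induced by cyclic AMP, had 6 of 35 and Tomm20, which encodes a mitochondrial import receptor, 6 of 41. Foxo3, Nfe2l3 and Zbtb16 had 5 each, of 40, 45 and 21. The Nfe2l3 sites lay 161639 to 261559 bp from its TSS. The 6 sites near Fos lay from 22079 bp upstream to 58280 bp downstream of its TSS and scored 122 to 146 in replicate 1 and 98 to 143 in replicate 2.

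Immediate early and AP-1 genes, which encode short-lived factors made within minutes of a stimulus, were nearest to strongest sites more often than protein-coding genes at large: 12 of the 18 on the list were, against 7.22% of all. Of their 371 shared distal sites 26 were among the strongest (7.01%, 4.63 to 10.1), against 1.69% of all shared distal sites. Nr4a1, an orphan nuclear receptor, had 2 of 11, scoring 126 and 145 in replicate 1 and 96 and 129 in replicate 2. Among genes picked after their values were seen, Ier2 had 3 of 8, Fosb 2 of 7, Klf6 4 of 70, Jun 2 of 30 and Junb 1 of 5. The count was 11 genes when either replicate alone ranked the sites.

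Of the genes induced by glucocorticoids, 7 of 11 on chromosomes 1 to 19 were nearest to a strongest site, and 17 of their 178 shared distal sites were among the strongest (9.55%, 5.66 to 14.9). Per1, a clock gene, had 2 of its 4 sites there: the one 1807 bp upstream scored 143 and 126 and holds the response element printed above, and the one 1247 bp upstream scored 133 and 108 and holds CACGTG. Zbtb16, a zinc finger factor, had 5 strongest sites, all in its introns between 75314 and 112154 bp from the TSS, scoring 127 to 140 in replicate 1 and 110 to 120 in replicate 2; 2 of them held the response element. Klf9 and Cebpd, named after their values were seen, had 3 strongest sites each, of 22 and 19. Dusp1, with 1 strongest site, stands in this list and in that of the immediate early genes. With only the 1000 best ranked sites the count of genes was 4, and with replicate 1 or 2 alone it was 6 or 5.

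Of 13 housekeeping genes on the chromosomes used, 4 were nearest to a strongest site (30.8%), against 66.7% of the immediate early genes and 63.6% of the glucocorticoid genes. By sites, 7 of their 71 shared distal sites were among the strongest (9.86%, 4.06 to 19.3), a wide interval that holds the site shares of both lists above; the differences between the lists were not tested. The elongation factor gene Eef1a1 had 1 of its 10 sites among them, scoring 138 and 118.

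Among genes of lung cells, those of alveolar type 1 cells, the thin gas exchange cells, had 9 of 164 sites among the strongest (5.49%, 2.54 to 10.2) in 5 of 13 genes. Hopx, a homeodomain protein of these cells, had 3 of 18 sites, between 11490 and 39900 bp from its TSS, scoring 119 to 129 in replicate 1 and 93 to 117 in replicate 2, and Emp2 had 2 of 18. Genes of type 2 cells, which make surfactant, had 4 of 106 (3.77%, 1.04 to 9.38) in 2 of 14 genes: Sftpb, which encodes surfactant protein B, with 3 of 8 sites, 11109 to 32199 bp upstream of its TSS, and the lipid desaturase gene Scd1 with 1 of 11. Genes of morphogen pathways had 14 of 454 (3.08%, 1.70 to 5.12) in 6 of 16 genes. Wnt7b, a Wnt ligand of lung epithelium, had 2 of 15 sites, which scored 134 and 141 in replicate 1 and 121 and 129 in replicate 2, and Hes1, a target of Notch, had 3 of 48. Matrix and adhesion genes had 6 of 281 (2.14%, 0.788 to 4.59) in 3 of 14 genes. Among them were Thbs1 with 1 of 43 sites, 367805 bp from its TSS, and the epithelial integrin gene Itgb6 with 2 of 18.

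The remaining lists, like those of type 2 cells and of matrix and adhesion, had intervals that held the background of 1.69%. Epithelial transcription factors had 5 of 536 sites (0.933%, 0.304 to 2.16) in 5 of 17 genes, 1 each. Id2 (126 and 110) and Sox9 (126 and 100, 319517 bp from its TSS) ranked best. Mesenchymal genes had 4 of 264 (1.52%, 0.414 to 3.83) in 3 of 15 genes. Of these, Tbx4 and Fn1 held 1 each, 125866 and 240641 bp from their TSSs. Endothelial genes had 3 of 282 (1.06%, 0.220 to 3.08) in 2 of 18 genes, which were Vwf (137 and 114) and Ets1, and lymphoid genes had 3 of 143 (2.10%, 0.435 to 6.01) in Gata3 and Ets1, which stands in both lists. The lists for smooth muscle and pericytes, myeloid cells, liver, neurons, and heart and skeletal muscle had 0 strongest sites among 80, 57, 59, 96 and 56 shared distal sites; these counts allow up to 4.51%, 6.27%, 6.06%, 3.77% and 6.38%, so a share below the background was not detectable with so few sites.

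**Figure D5:**
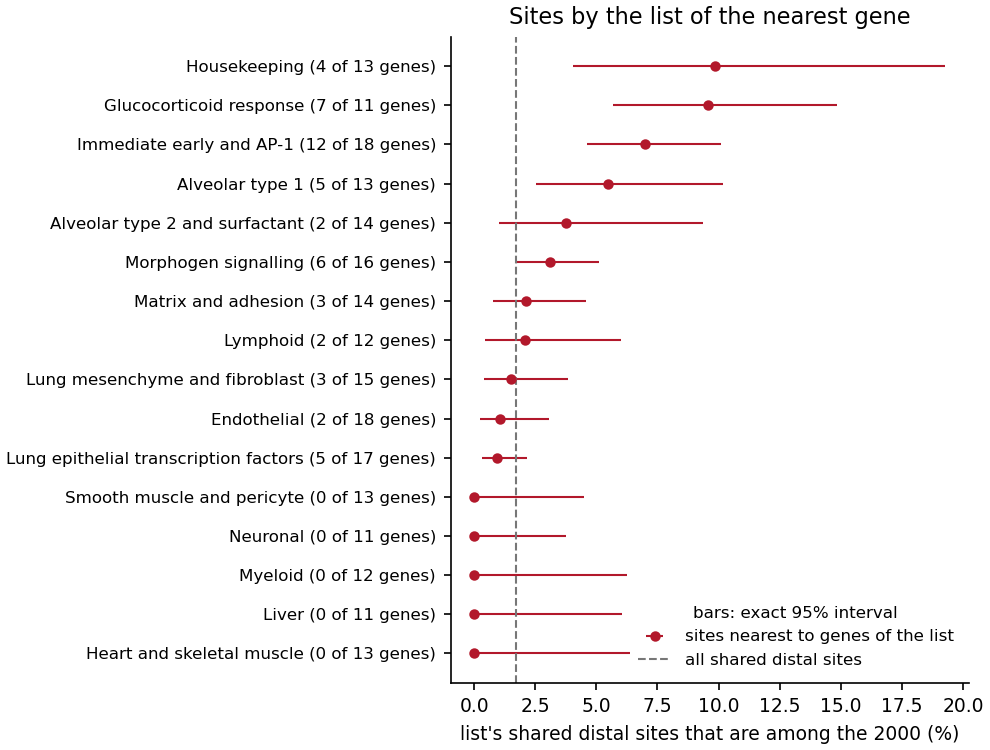
Share of the shared distal sites nearest to the genes of each list that are among the 2000 strongest (x axis, percent), with exact 95% intervals for counting error and, in brackets, the genes nearest to at least 1 strongest site. The dashed line is the share over all shared distal sites (1.69%); the lists of housekeeping, glucocorticoid, immediate early and alveolar type 1 genes stand above it, at 9.86%, 9.55%, 7.01% and 5.49%, and the interval of the morphogen list begins at it (1.70%).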

How the data were processed

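DNase-seq peaks and hotspots were those the authors called on each replicate, deposited against mm10; neither aligner nor caller was given in the sources used here. Each deposited peak carried the authors' score, a whole number of unstated meaning, and each deposited hotspot a −log10 q-value, 100 at most, per the file format. The score was used to rank peaks within each replicate. Peaks of chromosomes 1 to 19 were merged at an overlap of 1 bp and set against GENCODE M21, RefSeq and the sequence of GRCm38. Shares carry exact binomial 95% intervals (scipy 1.17.1) for counting error only; depth was not given. No enrichment test was run, since the members were chosen on the score and share neighbourhoods. Search and ranking were tested on simulated data. The members, motifs and gene lists were chosen with earlier results of these data known. Named sites were the 10 best ranked, the 3 best with CTCF, with AP-1 and with each consensus at a ratio of at least 1.5 in at least 40 members; named genes were the 10 with most members and 2 per list. Some of these sites and genes are not reported here. Alternatives included each replicate alone, other limits and other windows.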

Additional observations from a re-analysis of the deposited data

How the results depend on the processing

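Of 116 alternative values, 80 kept the direction and moved little, 35 moved further and 1 turned round; the cause was not tested. Ranking by 1 replicate gave CTCF shares of 1.85% to 5.0% (main value 2.7%), with a log2 ratio to the others of -1.32 to 0.13 against a main value of -0.77; the value of 0.13, from replicate 2 alone, is the one that turned round. AP-1 shares were then 12.3% to 14.05% (log2 ratio 0.61 to 0.81), and shares within 12.5 kb of another strongest site 21.35% to 25.05%. With the 1000 best sites, CTCF stood at 2.0% (log2 ratio -1.20), intergenic DNA at 50.9%, the median TSS distance at 6002 bp and close spacing at 20.1%. With the 5000 best, these were 4.38% (-0.064), 44.62%, 7709.5 bp and 32.38%. Close spacing depends on the number of sites taken, so these shares do not compare directly with the main value of 24.7%. A 300 bp window gave CTCF in 4.05% (4.77% of the others) and AP-1 in 18.55% (11.2%), and 1 mismatch gave CTCF in 8.55% (14.0% of the others). Beyond 2500 bp from any TSS, intergenic DNA held 50.5% and the median distance was 10379.5 bp, which the cut itself raises. Scores of at least 120 and 100, met by 1140 sites, gave 6073.5 bp and 21.1% closely spaced. Leaving out sites near RefSeq starts, an alternative chosen after seeing the data like the log2 ratios and list counts, gave 22.75% closely spaced. No paired analysis was possible because the series holds 1 group. Depth was not given, so score differences between replicates cannot be scaled by it.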
